A study of Mus musculus with 2 samples.

Results

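The genes for the proteins of the cytosolic ribosome were followed in mouse embryonic stem cells treated with Idoxuridine or with its solvent. They were chosen by symbol, as Rpl or Rps followed by a digit together with Rpsa, Rplp0, Rplp1 and Rplp2, leaving out the Rps6k kinases, paralogs with a symbol ending in l and copies marked -ps. All 79 genes that fit this rule had at least 200 UMIs over both libraries, among 27998 genes in the table and 10380 that reached the same minimum. Of the 79, 32 encode small-subunit proteins and 46 large-subunit proteins. The last, Rps19bp1, encodes a binding partner of the small-subunit protein encoded by Rps19 and is no subunit, and it is kept because the rule takes it. Rps27rt, counted with the small subunit, is a retrocopy whose annotated coding sequence of 255 nt has 0 differing bases from that of Rps27.

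A ribosome holds nominally a single copy of most of its proteins, so the messages of these genes are usually made in step, and an excess protein that finds no place in a particle is degraded. Their messages begin with a run of pyrimidines, the 5′ TOP motif, through which mTOR signalling sets how strongly they are translated. Embryonic stem cells divide quickly, and their ribosomal protein messages make up a large part of all messages.

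The Idoxuridine library came from E14 cells, a male mouse line, given the iodinated thymidine analogue Idoxuridine for 24 h, labelled 10 µM in one field and 10 mM in another. The DMSO library came from E14 cells given the solvent for 24 h. Both were grown without feeders on gelatin in 2i/LIF medium, which blocks a pair of kinases and adds leukaemia inhibitory factor, both carry the strain label C57BL/6, and both passed through the same droplet chemistry, which counts the 3′ end of each molecule once by its unique molecular identifier (UMI). There was 1 library per treatment, so treatment, culture and library cannot be told apart and no test was possible. Intervals of levels, shares of UMIs and ratios cover counting error only. Those of a percent of cells cover only the drawing of cells within 1 library.

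The libraries held 742 cells with 30454626 UMIs for Idoxuridine and 811 cells with 40818344 UMIs for DMSO, with medians of 37425 and 44502 UMIs per cell, and they shared 2 cell barcodes. The median mitochondrial share of UMIs was 2.81% in Idoxuridine cells and 2.56% in DMSO cells, and the median share of nuclear-retained RNAs was 0.507% and 0.319%. The 8 stem cell markers fixed for the label check were all present and all lower in the Idoxuridine library, with a median log2 ratio of -0.41. Pou5f1, the pluripotency factor Oct4, stood at 1620 CPM (UMIs of the gene per 1e6 UMIs of the library) in the Idoxuridine library and 2072 CPM in the DMSO library. Of the fibroblast, blood and neuron markers 0 reached 200 UMIs, and the blood markers Ptprc, Hbb-bs and Hba-a1 were at 0 in both. Of the 3 endothelium markers 1 did, with 647 UMIs in the Idoxuridine library and 1206 in the DMSO library (log2 ratio -0.48). The fibroblast marker Col1a1 had 45 UMIs in the Idoxuridine library and 0 in the DMSO library, and Lum had 86 and 1. The part of any of these differences in the results below was not tested, apart from the splits of cells by UMIs, mitochondrial share and nuclear-retained share.

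Sequences of the members on which the results turn are shown first, to give the scale of the shortest one and the start of 4 promoters. The coding sequence of Rpl41, with the start and stop codons in capitals, is 78 nt long and is the shortest of the 79, and it lies within chr10:128548387-128548960 on the minus strand (GRCm38, with introns removed).
Rpl41: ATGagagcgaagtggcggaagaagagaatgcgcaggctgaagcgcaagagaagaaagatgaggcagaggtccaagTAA

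The 60 bases around the annotated start of Rps28 and Rpl38, the pair with the highest level ratio, and of Rps6 and Rpl4, the lowest apart from Rps19bp1, follow in that order, with the longest run of C and T within 20 bases of the start in capitals (RefSeq, GRCm38.p6). They lie at chr17:33824543-33824602 (minus strand), chr11:114668540-114668599 (plus), chr4:86857348-86857407 (minus) and chr9:64173347-64173406 (plus).
Rps28: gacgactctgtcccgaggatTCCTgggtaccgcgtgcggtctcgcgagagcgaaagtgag
Rpl38: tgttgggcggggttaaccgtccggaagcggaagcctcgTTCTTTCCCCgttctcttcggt
Rps6: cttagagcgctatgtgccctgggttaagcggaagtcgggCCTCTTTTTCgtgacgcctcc
Rpl4: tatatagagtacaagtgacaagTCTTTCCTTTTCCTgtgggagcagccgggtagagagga

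Rpl38, Rps6 and Rpl4 each show a pyrimidine run of at least 8 bases, and Rps28 has a longest run of 4 within the window of 20 bases on either side of the listed start, where the window ends inside a pyrimidine run. Over the 59 members with a promoter in the RefSeq table, the longest C/T run within 20 bases of the start had a median of 7 bases, against 5 over the promoters of all 27025 genes listed. It reached 8 bases in 26 members (44.1%), against 15.9% of all genes. The core of an ETS or GABP site, CCGGAA on either strand of the 300-base window, was found in 30 members (50.8%), against 15.2% of all genes. CTTTC was found in 49 (83.1%), against 57.1%, and on the gene's strand near the start in 18 (30.5%), against 5.38%. The YY1 core GCCATC was in 12 (20.3%), against 14.1%, and TATAAA in 5 (8.47%), against 14.2%. Between the length of the pyrimidine run and the level ratio of Idoxuridine over DMSO, Spearman's rho was 0.05 over the 59 members, a description.

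Together the 79 genes gave 13.98% of all UMIs in the Idoxuridine library (95% interval 13.96 to 13.99) and 12.86% in the DMSO library (12.85 to 12.88), a log2 ratio of 0.12. Counted per cell without scaling, the order was turned round, at 5737 UMIs per Idoxuridine cell and 6475 per DMSO cell. Every cell held member UMIs, with a median of 4950.5 in Idoxuridine cells and 5316 in DMSO cells and a lowest share of 8.26% and 5.47% of its UMIs. The small-subunit genes made up 5.77% of UMIs in the Idoxuridine library and 5.29% in the DMSO library, and the large-subunit genes 8.20% and 7.57%.

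Gene by gene, levels were compared as log2 ratios of CPM, Idoxuridine over DMSO, and a gene was counted as higher or lower only where the 95% Poisson intervals of its CPM did not overlap. By at least 0.5 log2, 7 of the 79 were higher and 0 were lower, while 18.8% of all 10380 genes were higher and 4.2% lower by the same rule. By at least 0.25 log2, 31 were higher and 0 lower, against 31.1% and 13.4% of all genes. Of the 1298 genes in the most abundant eighth of all genes, 40 were higher and 64 lower by 0.5 log2, and 139 and 256 by 0.25 log2. The share of members higher by 0.5 log2 was below that of all genes and above that of this eighth. By any size, 62 were higher, against 39.1% of all genes, and 12 were lower, against 22.5%, while 5 (Rpl8, Rpl10, Rpl29, Rps9 and Rps27rt) had overlapping intervals. The median log2 ratio was 0.20, with the middle of the members between 0.05 and 0.33 (25th and 75th percentile), against 0.09 for all genes and -0.06 for the most abundant eighth of them.

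**Figure D1:**
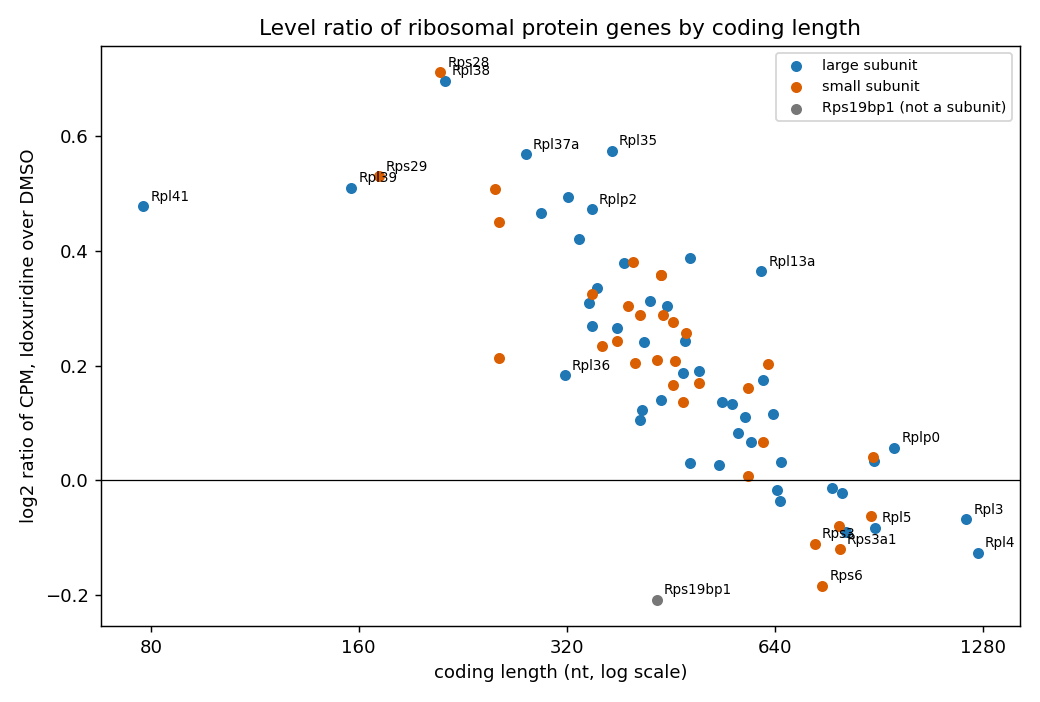
Log2 level ratio (Idoxuridine over DMSO, CPM) of each of the 79 members against its annotated coding length in nucleotides on a log axis, with points coloured by subunit. The highest ratio is 0.71 for Rps28 and the lowest -0.21 for Rps19bp1, and most short members lie above most long ones.

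The highest ratios belonged to genes of short proteins. Rps28, which encodes a protein of the head of the small subunit, had 1003 CPM (95% interval 992 to 1015) in the Idoxuridine library and 613 CPM (interval 605 to 620) in the DMSO library. Its log2 ratio was 0.71 and its coding length 210 nt. Rpl38, whose loss in mice alters the patterning of the axial skeleton, had 999 CPM in the Idoxuridine library (interval 987 to 1010) and 616 CPM in the DMSO library (609 to 624), which gives 0.70, with 213 nt of coding sequence. Both were higher in the Idoxuridine library under all 7 scalings tried. Rps29, a zinc-binding protein of the head, stood at 2568 CPM in the Idoxuridine library and 1778 CPM in the DMSO library (0.53). Rpl41, the shortest, stood at 1648 CPM and 1183 CPM (0.48). Rpl35 and Rpl39, which lie at the exit tunnel of the large subunit, had log2 ratios of 0.57 (722 CPM and 485 CPM) and 0.51 (933 CPM and 655 CPM), and Rpl37a had 0.57 (1259 CPM and 849 CPM). Rps21, the last of the 7 past 0.5 log2, had 0.51 (647 CPM and 455 CPM). Rpl36a (0.49) also ranked above Rpl41. All of these genes had intervals that did not overlap between the libraries. Rpl35 overlaps Arpc5l and Wdr38 on the annotation, and Rps28 overlaps Kank3, and whether reads were assigned by strand is not given in the sources used here.

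The lowest ratios belonged to genes of long proteins, apart from Rps19bp1. Rps19bp1 had 80.8 CPM (77.7 to 84.1) in the Idoxuridine library and 93.4 CPM (90.5 to 96.5) in the DMSO library (log2 ratio -0.21). Rps6, the small-subunit protein that S6 kinases phosphorylate, had 2941 CPM in the Idoxuridine library (interval 2922 to 2960) and 3342 CPM in the DMSO library (3324 to 3360), which gives -0.18. Rpl4, which reaches into the exit tunnel with a long extension, had 4903 CPM in the Idoxuridine library (interval 4878 to 4927) and 5351 CPM in the DMSO library (5329 to 5374), which gives -0.13, and at 1260 nt is the longest. Rps3, at the entry of the messenger channel, stood at 3222 CPM and 3480 CPM (-0.11), Rps3a1 at 2098 CPM and 2281 CPM (-0.12), and Rpl7 at 3452 CPM and 3678 CPM (-0.09). All 6 were lower in the Idoxuridine library under all 7 scalings, and none by as much as 0.25 log2 under CPM.

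Across the 79 members the level ratio ran with coding length, with Pearson's r of -0.80 and Spearman's rho of -0.83 between the log2 ratio and log2 coding length, a description over genes of the same 2 libraries. It was -0.88 and -0.86 within the 32 small-subunit genes and -0.80 and -0.86 within the 46 large-subunit genes. Long members were also the more abundant ones (r 0.50, rho 0.71), and the ratio ran with abundance too (r -0.30, rho -0.55). Within the more abundant 40 members it was still -0.80 and -0.81 with coding length, and within the other 39 it was -0.68 and -0.71. With annotated mRNA length in place of coding length the relation was weaker, at -0.44 and -0.50. The annotated mRNA lengths reached 5130 nt, for a gene with a coding length of 393 nt. The part of such values in the weaker relation was not tested. The relation with length was looked at after the level ratios were known.

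Split into terciles by coding length, the 26 shortest members (78 to 402 nt) had a median log2 ratio of 0.40, the 27 in the middle (408 to 567 nt) 0.19, and the 26 longest (579 to 1260 nt) -0.004. Of the members at least 0.25 log2 higher, 21 were in the shortest tercile, 9 in the middle and 1 in the longest (31.1% of all genes pass), and all 7 past 0.5 log2 were in the shortest. The summed CPM of the shortest tercile was 26202 in the Idoxuridine library and 19642 in the DMSO library, whereas that of the longest tercile was 78789 and 78757. Nearly all of the difference in summed CPM between the libraries lay in the shortest and middle terciles. The exceptions stood out by name. Rpl13a (612 nt), which in human monocytes also takes part in holding back translation of some inflammatory messages, was the 1 long member past 0.25 log2, at 3502 CPM in the Idoxuridine library and 2720 CPM in the DMSO library (0.36). Its annotation overlaps Gm45713 on the same strand. Rpl36 (318 nt) was the lowest of the shortest tercile, at 670 CPM and 591 CPM (0.18).

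Over all other genes of these libraries the relation was not seen. Over the 10076 other genes with a coding length in the annotation, r was 0.07 and rho 0.18. Over the 202 of them as abundant as the members (at least 521 CPM) they were 0.10 and 0.12, and over the 154 that also lay within the members' range of length 0.04 and 0.10. Among those abundant genes, the 16 with a coding length within that of the shortest tercile had a median log2 ratio of -0.13, with 2 at least 0.25 log2 higher. All 506 other genes of that length, most of them less abundant, had a median of 0.09 with 160 (31.6%) at least 0.25 log2 higher. These other genes include ribosomal subunit genes outside the symbol rule. Gnb2l1 was among the 202 abundant ones, and Fau (log2 ratio 0.29) was among the 16 and among the 2 of them that were higher. The genes of the mitochondrial ribosome, which are encoded in the nucleus and make a separate ribosome, showed a relation of the same sign (r -0.44, rho -0.37 over 76 genes) around a lower median of -0.23.

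The 14 genes of the small-subunit head had a median log2 ratio of 0.27 with 7 at least 0.25 log2 higher, and the 17 of its body and platform had 0.20 with 6. The 8 genes of the exit tunnel had 0.16 with 3, against 31.1% of all genes, so the counts for the body and platform and for the exit tunnel were near the background. In the P stalk, which recruits the elongation factors, the short Rplp1 and Rplp2 stood at 1335 CPM and 1369 CPM in the Idoxuridine library and 1078 CPM and 987 CPM in the DMSO library (0.31 and 0.47). Their long anchor Rplp0 stood at 4789 CPM and 4605 CPM (0.06). The particle of 5S RNA with Rpl5 and Rpl11, which can bind Mdm2 and so stabilise p53 when ribosome assembly fails, differed between its members under CPM, with Rpl5 at 2162 CPM in the Idoxuridine library and 2290 CPM in the DMSO library (-0.08) and Rpl11 at 1165 CPM and 1059 CPM (0.14). Rpl11 was above 0 in 4 of 7 scalings, and under TMM both were below it (-0.29 for Rpl5 and -0.07 for Rpl11). Rps27a, made as a fusion with ubiquitin, stood at 1915 CPM and 1741 CPM (0.14). Rpsa, also described as a laminin receptor, stood at 4966 CPM and 4832 CPM (0.04), and Rpl3, the most abundant member, at 6306 CPM and 6611 CPM (-0.07).

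Of 4 proteins reported in mouse stem cells to be present on fewer than all ribosomes, Rpl38 had the log2 ratio of 0.70 given above, Rps25 0.24 (572 CPM in the Idoxuridine library and 483 CPM in the DMSO library), Rps7 0.16 (1609 CPM and 1438 CPM) and Rpl10a -0.04 (1666 CPM and 1709 CPM). The 4 members on the X chromosome divided by length as the others did. The short Rpl39 and Rpl36a were higher (0.51 and 0.49), whereas Rps4x stood at -0.08, with separate intervals, and Rpl10 at -0.02, with overlapping ones. The 4 least abundant members were Rps27rt at 17.9 CPM in the Idoxuridine library and 15.5 CPM in the DMSO library, Rpl29 at 51.5 CPM and 50.5 CPM, Rps19bp1 as above and Rpl27 at 142 CPM and 130 CPM. Many ribosomal protein genes have near-identical processed copies in the genome. How reads matching several copies were counted is not given in the sources used here, so the levels of such members are uncertain, those of Rps27 and Rps27rt among them.

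The order of the members is the same under any scaling of whole libraries, while the direction of the pool as a whole depended on the scaling. TMM scaling, which assumes that most genes do not differ, lowered every ratio by a shift of -0.21. The all-gene median was then -0.12 in place of 0.09 under CPM, and TMM put the members' median at -0.01 and their summed level at -0.09. Median-of-ratios scaling put them at -0.05 and -0.13. Unscaled UMIs per cell put them at -0.09 and -0.17, with all genes at -0.21. Members above 0 numbered 65 under CPM, 36 under TMM, 31 under median of ratios and 25 per cell. By at least 0.25 log2, 11 members were higher and 10 lower under TMM, where 18.3% and 32.6% of all genes were. Under median of ratios 7 were higher and 14 lower, against 16.5% and 37.4% of all genes, and per cell 4 and 20, against 15% and 42.5%. The gap between the members' median and that of all genes is the same in all 4 by construction, since each shifts every gene by a constant.

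**Figure D2:**
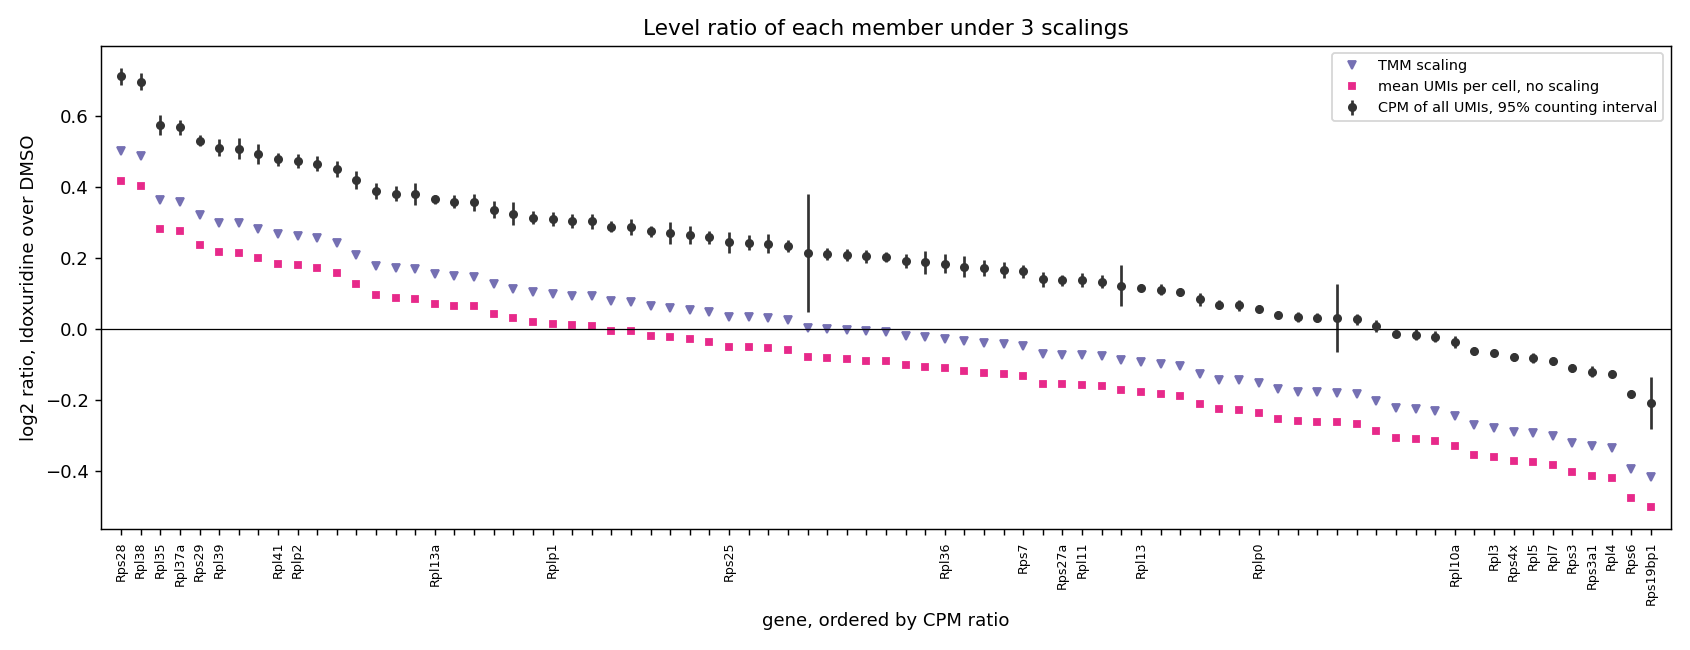
Log2 level ratio (Idoxuridine over DMSO, y axis) of each of the 79 members, ordered along the x axis by the ratio under CPM, with the names of a selection below and circles for CPM (bars are 95% counting intervals), triangles for TMM and squares for UMIs per cell. The order of the genes is the same in all 3, and the line at 0 is crossed at another place, with 65 members above it under CPM, 36 under TMM and 25 per cell.

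Within terciles of coding length the medians under TMM were 0.19, -0.02 and -0.21 from the shortest to the longest, and per cell 0.11, -0.10 and -0.30. What each gene took of the pool does not depend on the scaling. The shortest tercile made up 18.7% of the members' UMIs in the Idoxuridine library and 15.3% in the DMSO library, the middle tercile 24.9% and 23.5%, and the longest tercile 56.4% and 61.2%. Rps28 held 0.718% of the pool in the Idoxuridine library and 0.476% in the DMSO library (log2 ratio of shares 0.59), and Rps6 held 2.10% and 2.60% (-0.30). The split between subunits moved far less.

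In single cells the pool showed the same composition. The shortest tercile made up a median of 18.49% of a cell's member UMIs in Idoxuridine cells (5th to 95th percentile 16.8 to 20.8) and 14.94% in DMSO cells (13.5 to 16.6). Of the 742 Idoxuridine cells, 741 (99.9%, exact binomial interval 99.3 to 100%) lay above the DMSO median. The SD between cells was 1.30 percentage points in Idoxuridine cells and 1.10 in DMSO cells, of which counting alone gives 0.57 and 0.49. Cells of a library share their culture and are no replicates, so that interval says nothing about other cultures. The split by coding length was chosen with the level ratios of these same libraries known. The small-subunit part of the pool had a median of 41.22% in Idoxuridine cells and 40.99% in DMSO cells, with SDs of 1.37 and 1.21.

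**Figure D3:**
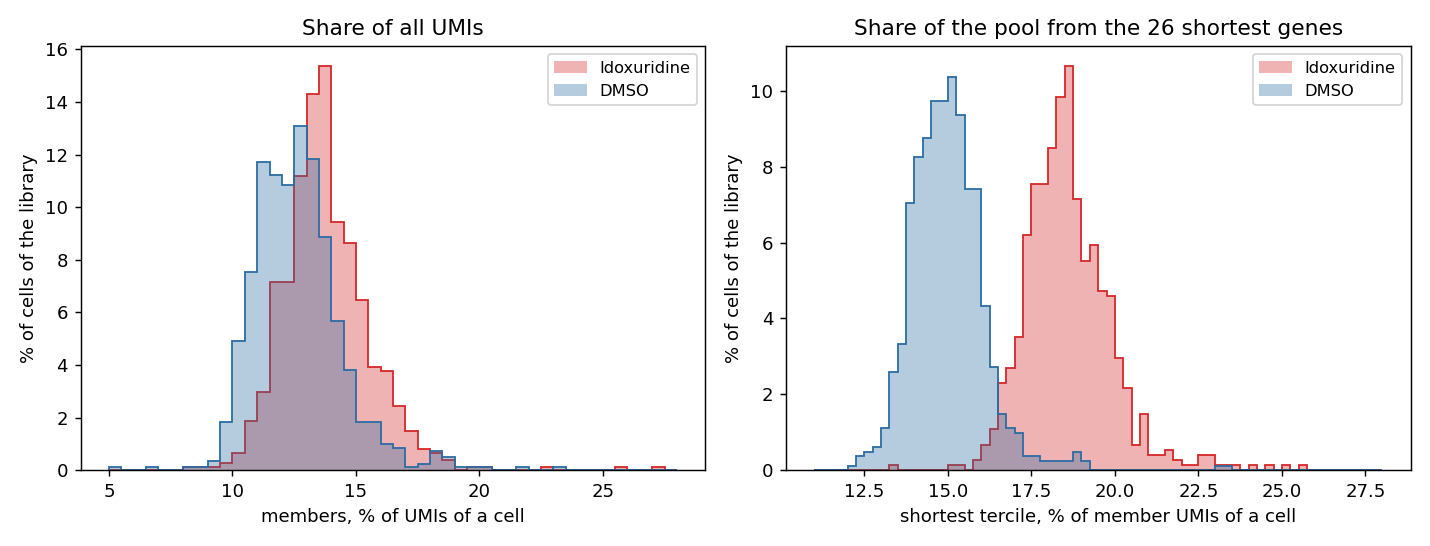
Histograms over cells of the members' share of all UMIs (left, x axis in percent) and of the part of the pool held by the shortest tercile (right, in percent), with the percent of each library's cells on the y axis, Idoxuridine in red and DMSO in blue. The shares of all UMIs overlap widely (medians 13.65% and 12.54%), and the parts held by the shortest tercile overlap much less (18.49% and 14.94%).

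The members' share of a cell's UMIs was less distinct, with a median of 13.65% in Idoxuridine cells (11.3 to 16.7) and 12.54% in DMSO cells (10.3 to 15.8), and 585 of 742 Idoxuridine cells (78.8%, 75.7 to 81.7%) above the DMSO median. After taking away counting error, the coefficient of variation of this share was 12.95% in Idoxuridine cells and 14.07% in DMSO cells, a ratio of 0.92. Within terciles of cells by UMIs, by mitochondrial share or by nuclear-retained share, the shortest members held medians of 18.2 to 18.9% of the pool in Idoxuridine cells and 14.6 to 15.4% in DMSO cells. These terciles were cut within each library, so they differ between libraries in what they were cut by (median UMIs of 24788 in Idoxuridine cells and 30377 in DMSO cells in the lowest, 56167 and 73902 in the highest). With cuts set over both libraries, the medians were 18.43% in Idoxuridine cells and 14.82% in DMSO cells between the 10th and 90th percentile of UMIs, and 18.46% and 15.03% between the 25th and 75th percentile of nuclear-retained share. The members' share of all UMIs did run with the mitochondrial share, with medians of 13.1% in the lowest tercile and 14.4% in the highest tercile of Idoxuridine cells, and 11.9% and 13.4% in those of DMSO cells. Spearman's rho between both shares was 0.37 over Idoxuridine cells and 0.43 over DMSO cells, a description over shares of the same total.

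Members moved together from cell to cell. With each cell thinned to 23500 UMIs, which kept 648 Idoxuridine cells and 764 DMSO cells, the mean correlation over the 3081 pairs was 0.26 in Idoxuridine cells and 0.29 in DMSO cells, and 98.2% and 98.0% of pairs were above 0. Genes of the mitochondrial ribosome had means of 0.016 and 0.018, translation factors 0.031 and 0.033, and other 5′ TOP genes 0.093 and 0.104. The lists differ in abundance, with median levels in the DMSO library of 1142 CPM for the members, 1223 CPM for the other 5′ TOP genes, 315 CPM for translation factors and 96.6 CPM for the mitochondrial ribosome, and the values are given side by side only. Among the genes that followed the rest most closely were Rpl13 (mean correlation 0.40 in Idoxuridine cells and 0.43 in DMSO cells), Rpl32 (0.36 and 0.42) and Rps19 (0.36 and 0.40). The lowest were Rpl5 (0.04 and -0.004), the scarce Rps19bp1 (0.006 and 0.040), Rps27rt (0.07 and 0.05) and Rpl29 (0.06 and 0.07). Rpl5 differs from the other 3 in its level, which was above 2000 CPM in both libraries.

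The spread of each gene between cells was measured as the Fano factor, variance over mean of UMIs per cell at that depth, where pure counting gives about 1. The median over members was 1.92 in Idoxuridine cells and 1.85 in DMSO cells. It was higher in Idoxuridine cells for 49 of the 79, against 79.2% of the 7316 genes measured, and at least 0.25 log2 higher for 13, against 10.5%. In the most abundant eighth of all genes, 1122 of 1298 were higher and 309 at least 0.25 log2 higher, both larger shares than among the members. The median log2 ratio was 0.06 for the members, 0.08 for all genes and 0.14 for this eighth. The direction for the members turned with the measure. By CV squared corrected for counting, 33 of 78 members were higher (median log2 ratio -0.083), against 77.3% of all genes (median 0.67). On unthinned UMIs 14 of 79 members were higher (median -0.22), against 46.7% of all genes (median -0.017). Across members the Fano ratio also ran with the level ratio (r 0.37, rho 0.42, a description). Rpl7 had 2.89 in Idoxuridine cells and 1.91 in DMSO cells (log2 ratio 0.60), Rpl13a 4.75 and 3.18 (0.58), Rpl41 3.16 and 2.36 (0.42), Rpl7a 2.17 and 1.67 (0.38) and Rps29 6.03 and 4.75 (0.34). Lower in Idoxuridine cells were Rps9 at 1.85 and 2.19 (-0.25), Rpl32 at 3.83 and 4.53 (-0.24), Rpl8 at 3.18 and 3.64 (-0.20), Rps14 at 2.29 and 2.60 (-0.18) and Rps3 at 2.80 and 3.14 (-0.17).

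Part of this spread is shared by the pool, and it can be taken out by thinning each cell to 3100 member UMIs. What then varies is the stoichiometry between members together with counting error, which alone gives about 1. The scarce Rps27rt stood at that floor, at 0.99 in both libraries. The median Fano factor was then 1.37 in 656 Idoxuridine cells and 1.20 in 761 DMSO cells, and it was higher in Idoxuridine cells for 62 of the 79. This measure was taken for the members only, so no share of all genes stands beside that count. It was not corrected for a gene's mean, which also bears on a Fano factor above 1. The means differed between the libraries along with the pool shares, and their part in that count was not tested. Rpl13a had 2.81 in Idoxuridine cells and 1.45 in DMSO cells (log2 ratio 0.95), the largest difference among the members. Rps6 had 1.99 and 1.36 (0.55), Rpl4 3.62 and 2.59 (0.48), Rpl41 2.01 and 1.46 (0.46) and Rpl7 2.61 and 1.93 (0.43). Rpl5 was lower, at 1.99 and 2.13 (-0.10). Rps28 and Rpl38, which led in level, differed little (0.11 and 0.10).

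**Figure D4:**
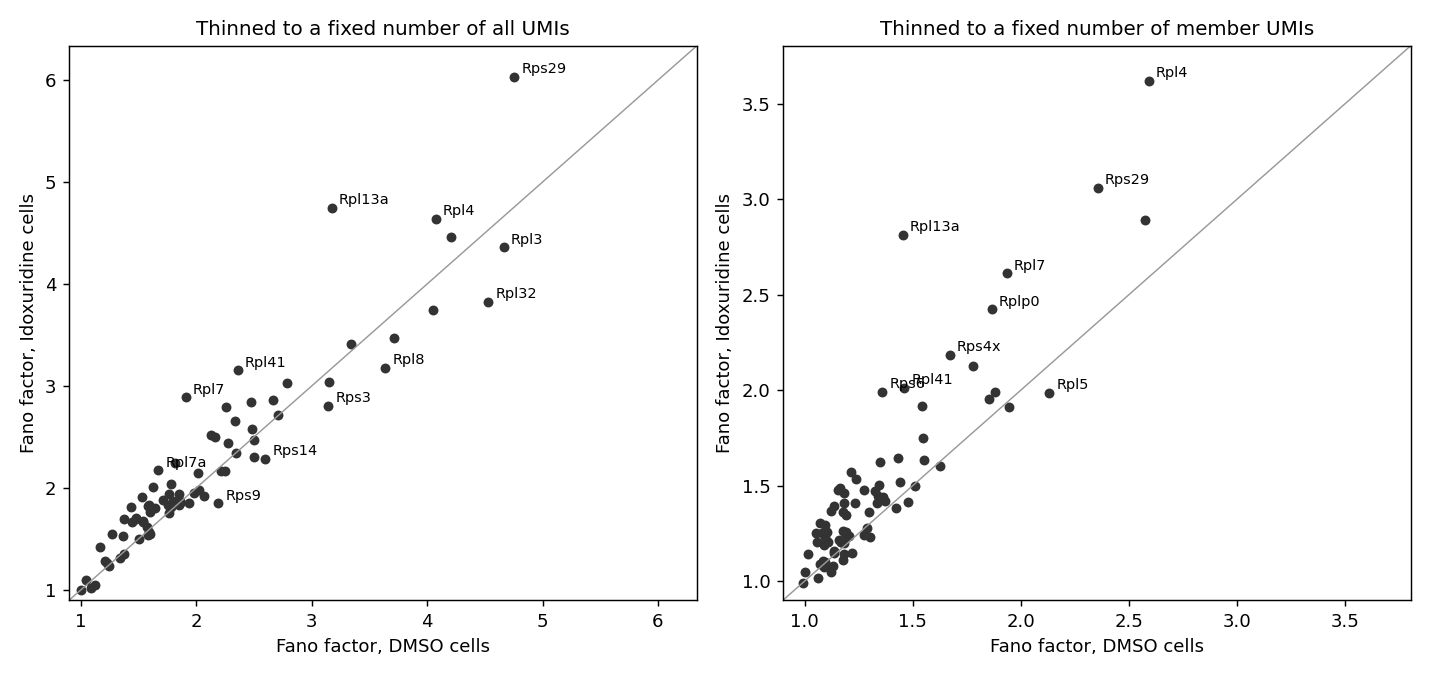
Fano factor of each member in Idoxuridine cells (y axis) against DMSO cells (x axis), with each cell thinned to 23500 UMIs of all genes (left) or to 3100 member UMIs (right), and the line of equal values in grey. On the left 49 of the 79 genes lie above the line and on the right 62, with Rpl13a well above it in both (4.75 and 3.18, 2.81 and 1.45).

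Other gene groups of translation are set beside the shares of all genes at least 0.25 log2 higher (31.1%) and lower (13.4%). Of 17 other 5′ TOP genes, tied to the same translational control, 1 was at least 0.25 log2 higher and 2 were lower, with a median log2 ratio of -0.05, so the lower share was near that of all genes. The higher one was Eef2, the elongation factor that moves the ribosome along (2012 CPM in the Idoxuridine library and 1662 CPM in the DMSO library, 0.28). Btf3, of the nascent chain complex, was lower (903 CPM and 1175 CPM, -0.38), as was Eif3e (500 CPM and 627 CPM, -0.32). Of 35 translation factors 3 were higher and 6 lower (median -0.07), and of 51 ribosome assembly genes 1 was higher and 16 were lower (median -0.16). Among the assembly genes more than 0.5 log2 lower was Nle1, a factor of large-subunit assembly (41.7 CPM and 75.2 CPM, -0.85). Of 14 genes of RNA polymerase I, which transcribes ribosomal RNA, and of its initiation factors, 2 were higher and 4 lower (median -0.05). Both higher ones, Taf1d and Rrn3, encode such factors. Of the 76 mitochondrial ribosomal protein genes tested, 2 were higher and 34 lower. Of 18 Myc and mTOR pathway genes 2 were higher and 3 lower (median 0.02). Among them was Mxd4, an antagonist of Myc, at 8.01 CPM in the Idoxuridine library and 3.16 CPM in the DMSO library (1.34). Myc itself was scarce, at 7.62 CPM and 6.54 CPM (0.22) with overlapping intervals, and so counted as neither higher nor lower. Mycn stood at 95.1 CPM and 126.8 CPM (-0.42) and Eif4ebp1, the mTOR-controlled brake on initiation, at 515 CPM and 747 CPM (-0.54).

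Other subunit genes lie outside the symbol rule. Fau (402 nt), which encodes a small-subunit protein fused to a ubiquitin-like one, stood at 627 CPM in the Idoxuridine library and 514 CPM in the DMSO library (0.29), and Gnb2l1 (954 nt), the scaffold RACK1, at 3203 CPM and 3301 CPM (-0.04). Of the 7 paralogs left out by their symbol, 2 were at least 0.25 log2 higher and 1 was lower. Both counts were near the shares of all genes (31.1% and 13.4%). The higher ones were scarce, with Rpl39l, known from testis, at 21.3 CPM in the Idoxuridine library and 6.66 CPM in the DMSO library (1.67), and Rpl3l, a striated muscle paralog, at 6.37 CPM and 2.11 CPM (1.60). Rpl7l1 was lower, at 279 CPM and 340 CPM (-0.28). Rps27l (0.23) and Rpl22l1 (0.21) had ratios like the median member, and Rpl36al (0.03) and Rpl10l (-0.00063) lay near 0. The coding sequence of Rpl39l is 85.3% identical to that of Rpl39, and whether reads were shared between them was not tested. The 12 -ps copies with at least 200 UMIs had a median log2 ratio of 0.20 and gave 0.034% of UMIs in the Idoxuridine library and 0.029% in the DMSO library.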

How the data were processed

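Single-cell 3′ RNA-seq libraries of E14 cells, 1 per treatment, were grouped by their treatment label. The deposited values are raw counts: each is a whole number of UMIs for a gene in a cell. Per the submitters' processing notes, Cell Ranger 2, Seurat and the mm10 build were used, and the way barcodes were called as cells is not given in the sources used here. Every deposited barcode was used, and no doublet caller was run; cells above 2 times their library's median UMIs were left out in an alternative. UMIs were summed per library and scaled to CPM (per 1e6 UMIs), with exact Poisson 95% intervals and exact conditional binomial intervals for ratios. Genes needed 200 UMIs over both libraries. For the spread, cells were thinned to 23500 UMIs by exact expectation; 94 Idoxuridine cells (12.7%) and 47 DMSO cells (5.80%) were shallower and left out, and a mean of 0.25 UMI was needed. Lengths and coordinates are from GENCODE M21 on GRCm38. Alternatives were edgeR 4.0.16 TMM and DESeq2 1.42.0 size factors, used for scaling only, other denominators, other cells and other depths. Scripts (Python 3.11.15, R 4.3.3) were tested on simulated data. The members and lists were chosen with earlier results of these data known. Named genes were those with the highest and lowest level, spread, pool share and correlation, and a fixed set of subunits; genes of other lists were chosen for naming after their values were seen. A few named members and list genes are not reported here.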

Additional observations from a re-analysis of the deposited data

How the results depend on the processing

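The counts come from 1 library per treatment, so that neither the spread between cultures nor the effect of depth on barcode calling can be given, and 20 members overlap another annotated gene. No paired analysis was possible because there was 1 library per treatment and no comparison rested on a test. The members' median log2 ratio of 0.20 was -0.0082 with TMM, -0.050 with median of ratios, -0.092 per cell, 0.225 with the denominator outside the members and mitochondrial genes, 0.23 in cells between the 10th and 90th percentile of UMIs, and 0.18 in the middle of the cells by nuclear-retained share. Members at least 0.25 log2 higher numbered 11, 7 and 4 under TMM, median of ratios and per cell, against 18.3%, 16.5% and 15% of all genes. Those at least 0.5 log2 higher numbered 1, 0 and 0, and 12 in the cells of middle depth. The share of all genes past 0.5 log2 was taken only under CPM in all cells (18.8%), so none stands beside these counts. The summed level of 0.12 was -0.091, -0.13 and -0.175 under TMM, median of ratios and per cell. It was 0.14 with the denominator outside the members and also without mitochondrial genes, 0.125 as the mean CPM per cell, 0.125 with at most 5% mitochondrial UMIs, 0.15 at middle depth, 0.12 without cells above 2 times the median UMIs and 0.11 in the middle of nuclear-retained share. The cause of these shifts was not tested. The median Fano log2 ratio of 0.06 was -0.22 on unthinned UMIs, with 14 members higher in place of 49, 0.085 with at most 5% mitochondrial UMIs, 0.093 without cells above 2 times the median UMIs, 0.0077 in the middle of nuclear-retained share, -0.083 as CV squared and 0.10 at a fixed pool depth. On unthinned UMIs 46.7% of all genes had a higher Fano factor in Idoxuridine cells, in place of 79.2%. The gap of 0.40 in log2 pool share between the shortest and longest terciles was 0.28 by mRNA length, 0.34 in the more abundant members and 0.29 in the less abundant, all chosen after seeing the data. Rps14 turned to -0.019 per cell. The ratio of cell-to-cell variation stayed between 0.92 and 0.93. Of the values of single genes, 152 moved by less than their interval and 237 by more.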
